A study of Mus musculus with 238 samples.

Results

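Gene expression in the caudate putamen was set against that in the motor cortex of the same animals, using the control mice of the study only. The comparison used 16 of the 238 libraries in the series, a pair of libraries (1 per region) from each of 8 mice. All 8 were C57BL/6JN mice aged 19 months. Mice 63, 66, 68 and 69 were females of the dietary intervention cohort with free access to food (AL, ad libitum). Mice 72, 76, 80 and 84 were males of the plasma injection cohort that had received retro-orbital injections of phosphate-buffered saline (PBS). Sex, cohort and handling therefore could not be told apart, and each was the same in both regions of a mouse. The p-values below measure the spread between these 8 animals. RNA from whole dissected tissue was sequenced as unstranded messenger RNA, so a region's value is a mixture of all its cells, and fewer cells of a type and less RNA per cell cannot be told apart. The labels do not say how either region was dissected.

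The caudate putamen is the dorsal striatum of the mouse. Nearly all of its neurons are GABAergic spiny projection neurons, which fall into a direct-pathway class that carries the dopamine receptor D1 and an indirect-pathway class that carries the dopamine receptor D2. The remaining neurons are interneurons, among them large cholinergic cells. The motor cortex is built mainly of glutamatergic pyramidal neurons in layers, with a minority of GABAergic interneurons of medial and caudal ganglionic eminence origin. The cortex projects to the striatum, so the cell bodies, and with them most transcripts, of that projection lie in the cortical sample.

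The sequences upstream of 4 genes that stood far apart between the regions are given here, because each marks a neuron class of 1 of the tissues: Drd2 and Tac1 for the indirect- and direct-pathway spiny neurons, and Slc17a7 and Neurod2 for cortical glutamatergic neurons. Each runs from 250 to 51 bases before a RefSeq start of transcription on GRCm38.p6, 5′ to 3′ on the strand of the gene. For Drd2 the RefSeq gene start, chr9:49340360, lies nearer the window than this. Capitals mark 3 kinds of letters searched on both strands: a cyclic AMP response element type motif (TGACGTCA or TGCGTCA), an E-box (CAGATG) and a GC box (GGGCGG). The Drd2 window lies at chr9:49340153-49340352, plus strand, the Tac1 window at chr6:7554811-7555010, plus strand, the Slc17a7 window at chr7:45163671-45163870, plus strand and the Neurod2 window at chr11:98329696-98329895, minus strand.
Drd2: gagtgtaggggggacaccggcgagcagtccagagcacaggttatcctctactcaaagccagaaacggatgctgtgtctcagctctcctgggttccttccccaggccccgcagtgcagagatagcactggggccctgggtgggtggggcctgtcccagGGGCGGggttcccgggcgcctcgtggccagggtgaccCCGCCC
Tac1: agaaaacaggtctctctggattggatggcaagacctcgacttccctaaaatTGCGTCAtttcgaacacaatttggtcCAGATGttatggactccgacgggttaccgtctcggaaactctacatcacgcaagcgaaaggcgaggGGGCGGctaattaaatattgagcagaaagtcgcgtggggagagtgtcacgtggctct
Slc17a7: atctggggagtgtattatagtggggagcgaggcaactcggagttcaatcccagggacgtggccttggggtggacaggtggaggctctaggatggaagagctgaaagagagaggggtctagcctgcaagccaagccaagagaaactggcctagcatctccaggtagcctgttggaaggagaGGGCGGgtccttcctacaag
Neurod2: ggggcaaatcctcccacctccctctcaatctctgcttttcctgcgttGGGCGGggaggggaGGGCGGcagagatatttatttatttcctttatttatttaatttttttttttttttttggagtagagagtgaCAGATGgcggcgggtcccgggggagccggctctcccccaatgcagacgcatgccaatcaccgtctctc
The Tac1 window held 1 match of each of the 3 motifs, while the Drd2 window held 2 GC boxes and neither of the others. The Neurod2 window held 1 E-box and 2 GC boxes, and the Slc17a7 window held 1 GC box. Over the 32851 windows of the table, 1.89% held the cyclic AMP type motif, 12% the E-box and 24.6% the GC box. Among windows of the genes called higher past 2-fold in the caudate putamen (642 windows of 479 genes) the shares were 2.49%, 10.6% and 38.5%. Among windows of the genes called lower (843 windows of 602 genes) they were 2.37%, 10.4% and 36.3%, so the shares lay close together in both directions. For windows of all genes tested they were 2.96%, 8.58% and 42.4%. A match describes letters in the window and not the binding of a factor.

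Library totals ran from 6186790 to 18456088 counts in the caudate putamen (median 10562481) and from 4647696 to 17278069 in the motor cortex (median 7888234), in 21076 gene rows. Of these genes 13660 had enough counts to be tested. Levels are given as CPM (counts scaled to a common library size) after normalisation for library composition, and differences as log2 of caudate putamen over motor cortex with the standard error of the fit, so that a difference of 1 is a doubling. In the caudate putamen 3 libraries stood apart from the others of their region. That of PBS mouse 72 held transcripts of cortical glutamatergic neurons: Slc17a7 reached 149 CPM there and at most 10.4 CPM in the other 7. Over Slc17a7, Neurod6, Tbr1, Neurod2 and Slc30a3, the level in this library was 10.9% to 41.5% of that in the cortex of the same mouse (median 29.6%), against at most 1.54% in any other mouse. The libraries of PBS mouse 76 and AL mouse 69 held transcripts of the choroid plexus, with Ttr (transthyretin) at 3196 and 476 CPM and at most 4.26 CPM in the other 6. Results that move by more than 1.5 times without mice 72 and 76 are given both ways.

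Most of the genes tested differed between the regions, the larger differences in both directions. With the mouse as a block, 9048 of 13660 genes differed between the regions (66.2%), 4512 higher (33.0%) and 4536 lower (33.2%) in the caudate putamen (edgeR quasi-likelihood test, Benjamini-Hochberg adjusted p under 0.05). Tested against a difference of 2-fold, 1495 genes were called (10.9%), 665 higher (4.87%) and 830 lower (6.08%). The libraries of the regions did not overlap at all for 4432 genes (32.4%). Of the 1495 genes, 309 were at least 4-fold higher and 426 at least 4-fold lower, and 59 and 45 passed 32-fold. The sign was the same in all 8 mice for 1474 of the 1495, and the regions did not overlap for 1420 of them. A lack of overlap therefore adds little to a call past 2-fold. Differences of these genes had a median SD of 0.46 between mice (log2, range 0.089 to 2.93). Below, "rose" or "higher" and "fell" or "lower" refer to the caudate putamen relative to the motor cortex, and the median of each gene list stands beside a median of 0.0047 over all genes tested. Counts of list members called stand beside the shares of all genes tested (33.0% higher, 33.2% lower and 10.9% past 2-fold).

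**Figure D1:**
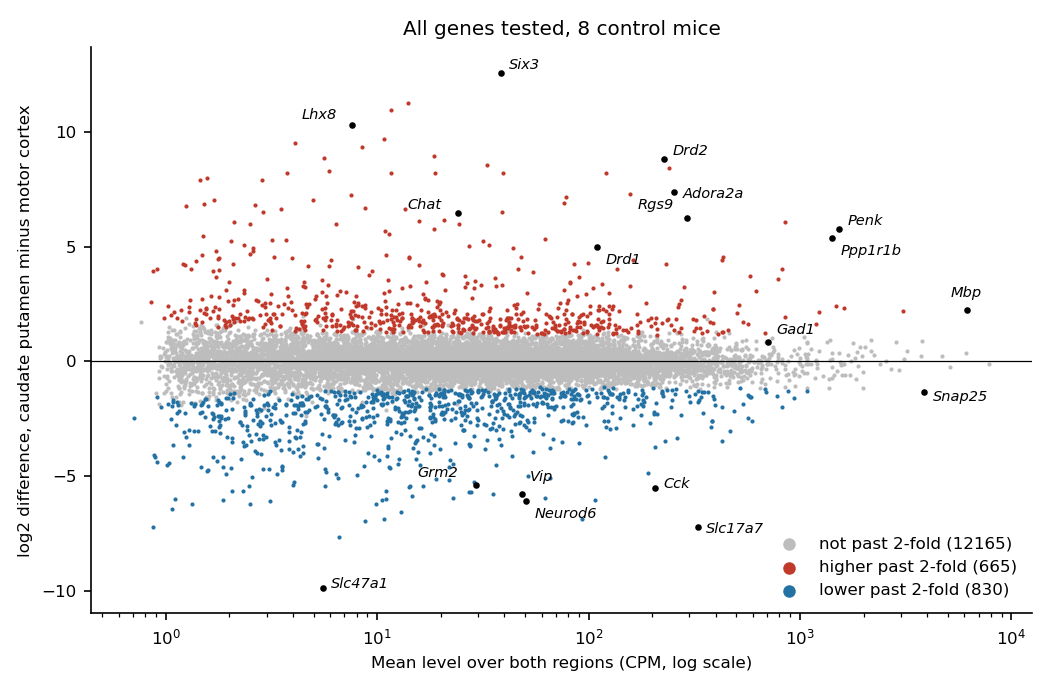
Mean level over both regions (CPM, log scale) against the log2 difference, caudate putamen minus motor cortex, for each of the 13660 genes tested in 8 control mice. Red points are the 665 genes higher and blue points the 830 genes lower past 2-fold, and spiny neuron genes such as Penk and Ppp1r1b combine a high level with a large difference.

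The genes with the largest positive differences included several with hardly a cortical count. Six3, a homeobox factor of the developing ventral forebrain (chr17:85613608-85626191 on GRCm38), was at 63.1 to 114 CPM (median 72.9) in the caudate putamen and had 0 counts in all 8 cortical libraries. Its level was at least 1879-fold higher, taking 3 counts over the 8 cortical libraries as the floor. Fitted log2 differences of such genes depend on the prior count and are not given. The divergent long noncoding gene Six3os1 lies beside it and overlaps it, and since the libraries were unstranded its reads cannot be told apart from those of Six3. Also without a cortical count were Gpx6, a selenoprotein glutathione peroxidase family gene (at least 749-fold), and Lhx8, a LIM homeobox factor of cholinergic neurons (at least 386-fold). Isl1, another LIM homeobox factor, had 1894 counts in the caudate putamen and 1 in the cortex, a ratio of 1604 in CPM (95% counting interval 288 to 63384). Clec12a, a C-type lectin receptor, had 1021 and 1 counts (ratio 865, interval 155 to 34184). Also among the 10 largest were Slc10a4, a vesicular transporter-like protein of cholinergic and monoaminergic neurons (8.94 ± 0.26), Drd2, and Sh3rf2, a ring-finger scaffold protein (8.56 ± 0.20). Slc10a4 differed by 9.82 without mice 72 and 76, and by 11.8 without mice 69, 72 and 76.

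Both dopamine receptor classes marked the caudate putamen. Drd2 was at 313 to 533 CPM (median 472) in the caudate putamen and at 0.409 to 2.02 CPM (median 0.807) in the motor cortex, a difference of 8.80 ± 0.15 (adjusted p = 1.05e-11 against 2-fold). Drd1 was at 92.7 to 315 CPM (median 213) and 1.70 to 15.4 CPM (median 6.88), a difference of 4.98 ± 0.30 (adjusted p = 5.19e-07). For neither receptor did the regions overlap, although Drd1 differed more between mice, and its lowest caudate putamen value was that of mouse 76. Adora2a, the adenosine receptor that is paired with D2 in indirect-pathway neurons, was at 351 to 603 CPM (median 513) against 1.23 to 4.18 CPM (median 3.01), a difference of 7.38 ± 0.13 (adjusted p = 1.43e-11). Of 10 genes listed for the indirect pathway, 7 were higher, all past 2-fold, and 1 was lower (median 4.89). The higher ones included the orphan receptor Gpr6 (7.15 ± 0.19) and the transcription factor Sp9 (2.62 ± 0.14). Plxdc1, a plexin-domain protein, was lower (−0.96 ± 0.07), and Ptprm (−0.05 ± 0.07) and Grik3 (0.38 ± 0.19) were not called. Grik3 was called without mouse 76 (0.48, adjusted p = 0.0367) and in the AL mice alone (0.53, adjusted p = 0.0155), and in none of the other 17 alternatives (highest adjusted p = 0.552). Of 10 genes listed for the direct pathway, 8 were higher, 6 of them past 2-fold, and 2 were lower (median 2.13). Slc35d3, an orphan nucleotide sugar transporter of D1 neurons, rose by 6.50 ± 0.13. The muscarinic M4 receptor gene Chrm4 was higher by only 0.85 ± 0.21, with overlapping regions.

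The peptide genes of the spiny neurons were higher in every mouse. Penk, the enkephalin precursor of the indirect pathway, was at 2185 to 4044 CPM (median 3079) in the caudate putamen and at 30.4 to 86.2 CPM (median 56.6) in the cortex, a difference of 5.78 ± 0.20 (adjusted p = 2.16e-09). Tac1, which encodes substance P in the direct pathway, was at 284 to 529.9 CPM (median 442) and 17.6 to 29.7 CPM (median 24.1), a difference of 4.23 ± 0.12 (adjusted p = 5.23e-10). Pdyn, the dynorphin precursor, was at 98.0 to 201 CPM (median 125) and 24.7 to 30.6 CPM (median 27.1), a difference of 2.22 ± 0.11 (adjusted p = 6.99e-07). For none of the 3 did the regions overlap. Over the 20 neuropeptide precursor genes tested, however, 7 were higher and 12 lower (median −0.81, with 5 and 8 past 2-fold). Several peptides of cortical neurons were lower. Cck, cholecystokinin, was at 3.66 to 63.5 CPM (median 5.98) in the caudate putamen and 322 to 497 CPM (median 391) in the cortex, a difference of −5.52 ± 0.47, or −6.24 without mice 72 and 76. Vip, vasoactive intestinal peptide, was at 0.639 to 7.25 CPM (median 1.09) against 80.6 to 112 CPM (median 94.1), a difference of −5.77 ± 0.29, or −6.45 without these mice. Adcyap1, the precursor of pituitary adenylyl cyclase activating peptide, had a median of 0.269 CPM against 26.5 (−6.56 ± 0.25). In none of the 3 did the regions overlap.

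The signalling chain downstream of the dopamine and adenosine receptors differed widely between the regions, and several of its enzyme families had members on both sides. The dopamine D1 receptor and this adenosine receptor raise cyclic AMP through the olfactory-type G protein subunit (Gnal), its partner gamma 7 (Gng7) and adenylyl cyclase 5 (Adcy5). Protein kinase A then phosphorylates DARPP-32 (Ppp1r1b), which inhibits protein phosphatase 1. Ppp1r1b was at 1982 to 3377 CPM (median 2797) in the caudate putamen against 53.8 to 80.9 CPM (median 62.3), a difference of 5.38 ± 0.13 (adjusted p = 1.75e-10). Adcy5 was at 543 to 1034 CPM (median 793) against 33.5 to 39.3 CPM (median 37.7), a difference of 4.43 ± 0.11. Of 10 adenylyl cyclase genes it alone was higher past 2-fold, while 5 were lower past 2-fold, among them Adcy1 (−2.47 ± 0.13), Adcy8 (−2.5 ± 0.17) and Adcy6 (−1.76 ± 0.16). Gnal rose by 2.44 ± 0.08 and Gng7 by 4.02 ± 0.09, whereas Gnas, the widespread stimulatory alpha subunit, was lower (−1.60 ± 0.10), as was the gamma subunit gene Gng2 (−2.44 ± 0.18). For these 4 subunits the libraries of the regions did not overlap. Over 26 G protein subunit genes 15 were higher and 9 lower (median 0.22), and 34.6% passed 2-fold, against 10.9% of all genes tested.

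Phosphodiesterases, which degrade cyclic nucleotides, were divided too. Pde10a, the phosphodiesterase of spiny neurons, was at 502 to 1223 CPM (median 848) against 29.7 to 44.5 CPM (median 32.5), a difference of 4.57 ± 0.13 (adjusted p = 5.23e-10). Pde1b (3.74 ± 0.11), Pde1c (3.10 ± 0.17) and Pde7b (2.41 ± 0.09) were higher too, while Pde1a fell to 17.1 to 102 CPM (median 24.2) from 338 to 416 CPM (median 379), a difference of −3.74 ± 0.27. Of 19 phosphodiesterase genes 12 were higher and 6 lower, with 7 and 2 past 2-fold (median 0.53). Thus 47.4% of them passed 2-fold, against 10.9% of all genes tested. Rgs9, a GTPase activator that ends D2 and opioid receptor signalling, was at 361 to 706 CPM (median 597) against 4.79 to 10.6 CPM (median 7.49), a difference of 6.26 ± 0.16 (adjusted p = 2.60e-10), followed among the 18 RGS family genes by Rgs8 (1.70 ± 0.08). In that family 11 genes were higher and 6 lower (median 0.54), and 27.8% passed 2-fold. In the broader list of 28 spiny neuron signalling genes 26 were higher, 22 of them past 2-fold, and 1 was lower (median 3.57). The largest of them were Syndig1l (8.41 ± 0.22), a relative of a synapse differentiation protein, and Lrrc10b (8.20 ± 0.13), a leucine-rich repeat protein. Itpka, an inositol trisphosphate kinase, was the lower one (−0.40 ± 0.10). Among 20 regulators of protein kinase A and phosphatase 1, 12 were higher and 7 lower (median 0.49), and 40.0% passed 2-fold. Of the kinase's regulatory subunits, Prkar2b was higher (1.3 ± 0.07) and Prkar1b lower (−1.5 ± 0.08).

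**Figure D2:**
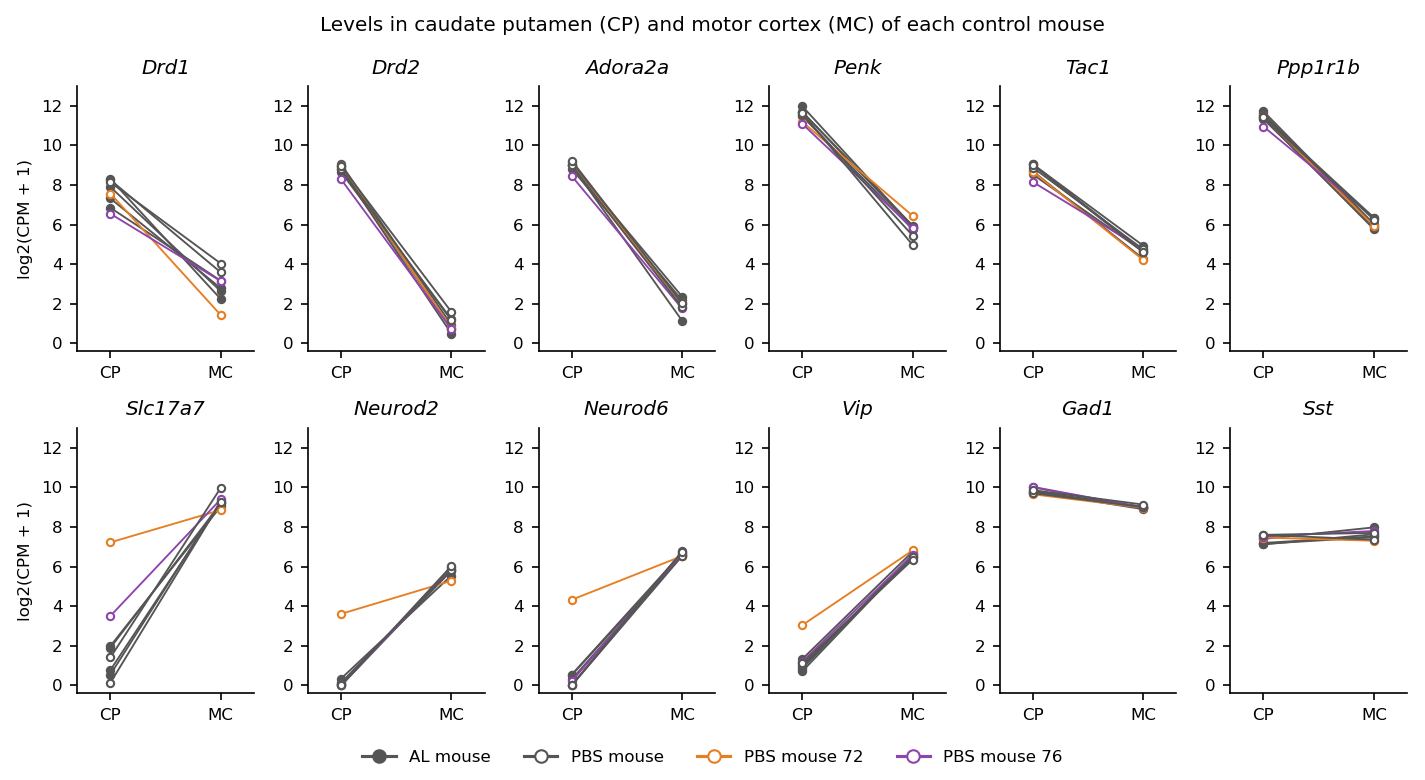
Levels as log2(CPM + 1) in the caudate putamen (CP) and motor cortex (MC) of each of the 8 control mice, a line per mouse, for 12 genes. Filled circles are AL mice and open circles PBS mice, with PBS mouse 72 in orange and PBS mouse 76 in purple. The 6 spiny neuron genes of the upper row fall in every mouse from CP to MC, the cortical genes Slc17a7, Neurod2, Neurod6 and Vip are raised in the CP library of mouse 72, and Sst lies at a like level in both regions.

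Transcription factors of the striatal lineage were mostly higher. Of 22 factors listed for the striatal lineage, 19 were higher, 17 of them past 2-fold, and 3 were lower (median 2.56). Beyond Six3 and Isl1, Rxrg, a retinoid X receptor, was at 185 to 436 CPM (median 291) against 1.40 to 2.80 CPM (median 2.01), a difference of 7.28 ± 0.12. Rarb, a retinoic acid receptor, rose by 4.29 ± 0.12, Foxp2 by 3.12 ± 0.20, Bcl11b by 2.65 ± 0.12, Meis2 by 2.5 ± 0.09 and Foxp1 by 1.72 ± 0.09. Bcl11b, Foxp2 and Foxp1 also mark cortical layers, and they were at 75.4, 14.7 and 175 CPM in the median cortical library. With Six3 at its bound the list's median is the same. The 3 lower members were Sp8 (−3.03 ± 0.55, or −3.80 without mice 72 and 76), Dlx1 (−1.91 ± 0.09) and Dlx2 (−1.04 ± 0.15), zinc finger or homeobox factors of GABAergic precursors and interneurons. Among 15 retinoid signalling genes, 10 were higher and 2 lower (median 0.51), and besides Rxrg and Rarb only Crabp1, a retinoic acid binding protein, was higher past 2-fold (7.03 ± 0.25, 868 counts against 5). Of this list 33.3% passed 2-fold in either direction, against 10.9% of all genes tested.

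Of 28 factors listed for cortical excitatory neurons, 23 were lower, 20 of them past 2-fold, and 3 were higher (median −2.0). Neurod6 was at 0 to 19.0 CPM (median 0.201) in the caudate putamen and 91.8 to 108 CPM (median 96.8) in the cortex, a difference of −6.09 ± 0.69 (adjusted p = 8.26e-05 against 2-fold). Neurod2, a basic helix-loop-helix factor like Neurod6, was at 0 to 11.3 CPM (median 0.0399) against 38.1 to 64.5 CPM (median 55.7), a difference of −5.68 ± 0.72. Tbr1, a factor of corticothalamic neurons, was at 0 to 39.2 CPM (median 0.375) against 94.5 to 165 CPM (median 116), a difference of −5.94 ± 0.78. In each of these 3 the highest caudate putamen value was that of mouse 72, and the regions did not overlap. Without mice 72 and 76 the differences were −8.80, −8.96 and −8.02. With all 8 mice DESeq2 gave −9.10, −9.53 and −8.29, so their size depends on the method too. Neurod1 was lower with hardly any count in the caudate putamen (−6.95 ± 0.33, or −7.74 without these mice, 12 counts against 1374). The 3 higher members were Pou3f1 (1.59 ± 0.16), Tle4 (1.5 ± 0.11) and Lmo3 (1.06 ± 0.26, overlapping regions). Cux1 (0.04 ± 0.08) and 1 other were not called.

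Transmission genes of glutamatergic cortical neurons were lower as well. Slc17a7, the vesicular glutamate transporter VGLUT1, was at 465 to 1011 CPM (median 604) in the cortex and 0.101 to 149 CPM (median 2.21) in the caudate putamen, a difference of −7.23 ± 0.88 (adjusted p = 1.16e-04). Leaving out mice 72 and 76 moved its difference to −8.71. Slc30a3, the zinc transporter of glutamatergic vesicles, was at 157 to 202 CPM (median 184) and 0 to 19.97 CPM (median 0.238), a difference of −6.87 ± 0.67, or −9.70 without these mice. Nrn1, neuritin, was at 163 to 238 CPM (median 210.3) and 0.469 to 32.5 CPM (median 0.948), a difference of −6.06 ± 0.65, or −7.96. Of 21 genes listed for cortical excitatory neurons 14 were lower, 11 past 2-fold, and 3 higher (median −1.68). The higher ones were Camk4, a calcium/calmodulin-dependent kinase (1.22 ± 0.10), Baiap2, an actin regulator of spines (1.05 ± 0.11), and Lypd1 (0.53 ± 0.17). Layer lists were more mixed. Of 15 upper-layer genes 8 were lower and 4 higher (median −0.46), led by Cux2 (median 5.65 against 59.9 CPM, −3.43 ± 0.11), Unc5d (−3.08 ± 0.19) and Rasgrf2 (−2.97 ± 0.17), and Rorb, the layer 4 orphan receptor, differed by −1.17 ± 0.16 (adjusted p = 4.70e-05, not past 2-fold). Of 26 deep-layer genes 14 were lower and 8 higher (median −0.58). Fezf2, of subcerebral projection neurons, fell to 2.25 to 10.3 CPM (median 3.66) from 41.3 to 59.9 CPM (median 51.1), a difference of −3.63 ± 0.21, while Syt6, a synaptotagmin, and Pcp4, a calmodulin regulator, rose by 3.67 ± 0.30 and 2.13 ± 0.20.

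**Figure D3:**
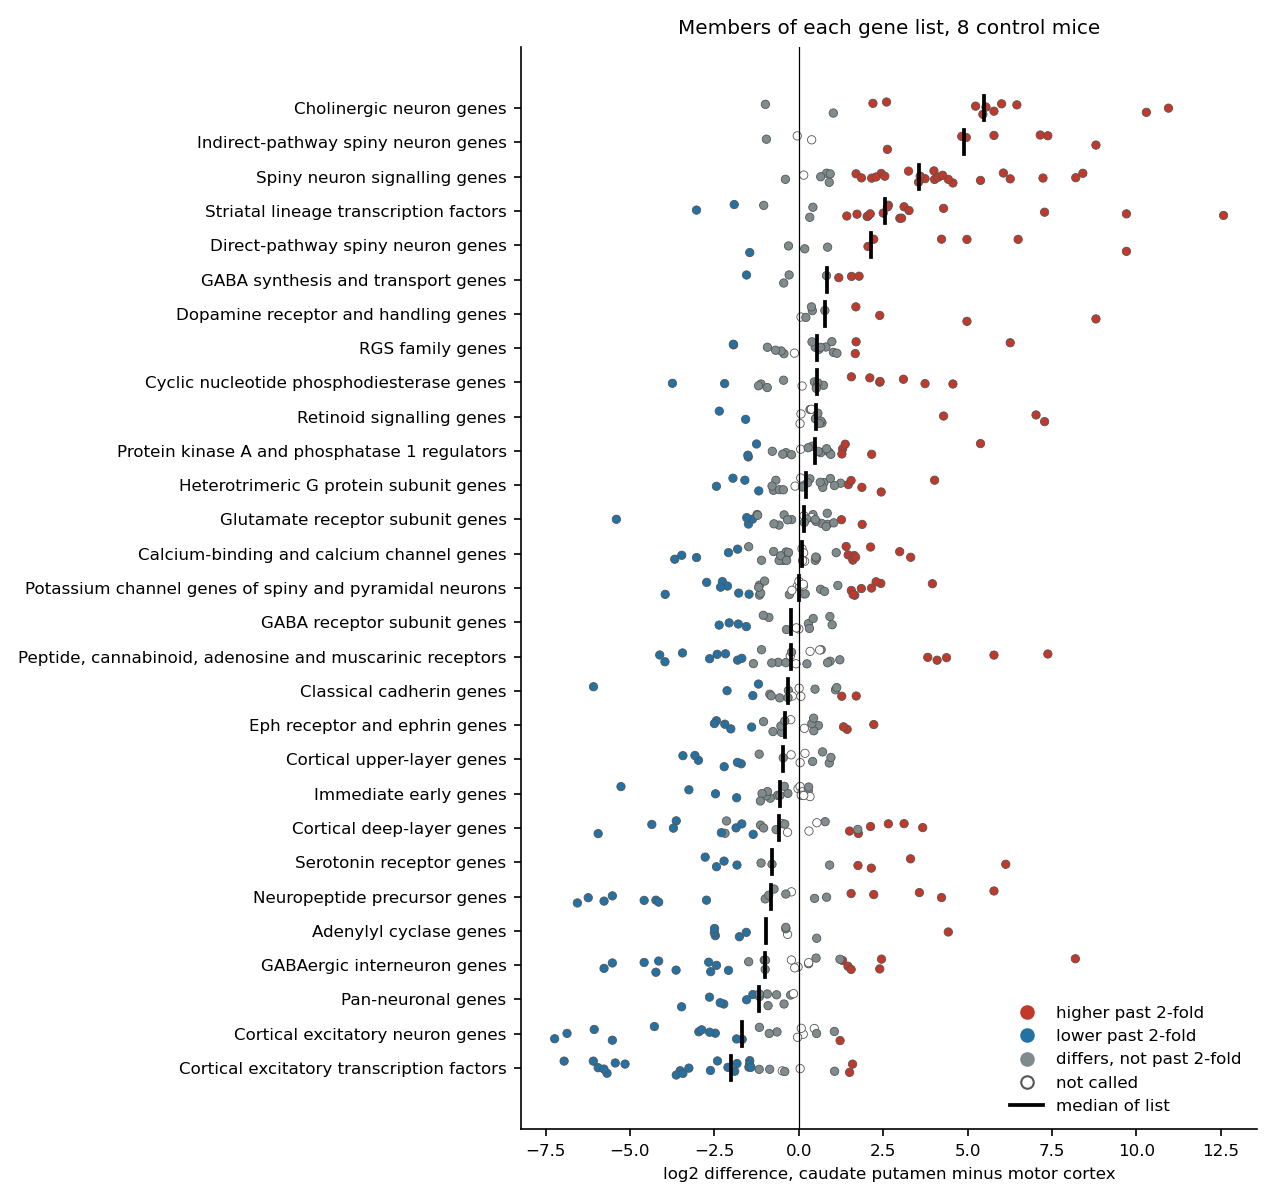
Log2 difference, caudate putamen minus motor cortex, of each tested member of 29 gene lists in 8 control mice, a point per gene, with lists ordered by their median (black bar). Red and blue points passed the test against 2-fold, grey points the test of any difference, and open points neither. The cholinergic list has the highest median (5.50) and the cortical excitatory transcription factors the lowest (−2.0).

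Cholinergic genes formed the list with the highest median. Of 12 tested, 11 were higher, 10 past 2-fold, and 1 lower (median 5.50). Chat, choline acetyltransferase, was at 27.5 to 58.8 CPM (median 47.6) against 0.204 to 0.733 CPM (median 0.550), a difference of 6.46 ± 0.12 (adjusted p = 3.11e-11). Slc5a7, the high-affinity choline transporter, rose by 6.01 ± 0.18, and Tacr1, the substance P receptor, by 5.78 ± 0.22. Ache, the enzyme that degrades acetylcholine, differed by 1.02 ± 0.05 (92.6 to 122 against 46.3 to 55.7 CPM) and was not past 2-fold. The lower member was Zic4, a zinc finger factor (−0.99 ± 0.29, overlapping regions). Lhx8 was among the genes of this list with no cortical count, and the median is the same with such genes at their bounds. Lhx8, Gbx1 and Nkx2-1 also stood in a list of septal and pallidal markers, of which 5 of 9 were higher and 3 lower, and whose sums were higher in 8 of 8 mice (58.0 to 79.7 against 33.4 to 45.5 CPM). The part of such tissue in the cholinergic result was not tested.

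GABA synthesis genes were higher, by less than Drd1, Drd2, Adora2a and Penk. Gad1, a glutamate decarboxylase, was at 804 to 1044 CPM (median 889) against 477 to 560.3 CPM (median 510.1), a difference of 0.82 ± 0.06 (adjusted p = 1.92e-07, not past 2-fold). Gad2, the other decarboxylase, was at 289.8 to 494 CPM (median 336) against 97.6 to 153 CPM (median 121), a difference of 1.56 ± 0.07 (adjusted p = 1.50e-05). The vesicular transporter Slc32a1 rose by 1.79 ± 0.13 and the GABA transaminase Abat by 1.18 ± 0.06. The membrane GABA transporters Slc6a11 (−0.45 ± 0.14) and Slc6a13 (−1.55 ± 0.21) were lower, and Slc6a13 is also a meningeal marker.

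Interneuron genes went in both directions, 9 higher and 15 lower of 28 (median −0.99). Of this list Vip and Cck fell most, with Crh, corticotropin-releasing hormone (−4.58 ± 0.28), and Tac2, the neurokinin B precursor (−4.23 ± 0.43). Tac2 differed by −4.96 without mice 69, 72 and 76. Sst, somatostatin, was at 138 to 194 CPM (median 172) in the caudate putamen and 158 to 252 CPM (median 191) in the cortex, with overlapping regions and a difference of −0.22 ± 0.09 that was not called (adjusted p = 0.0518). The call turned on the setting, and 9 of 19 alternatives made it. They included DESeq2 (adjusted p = 0.0431), limma-voom (adjusted p = 0.0482), scaling by plain library totals (adjusted p = 0.0351), and edgeR fits without mouse 72 (−0.27, adjusted p = 0.0163), without mouse 84 (−0.28, adjusted p = 0.0149) and without mice 72 and 76 (−0.27, adjusted p = 0.0193). The AL mice alone gave −0.42 (adjusted p = 0.000826) and the PBS mice alone 0.0078 (adjusted p = 0.963), the lowest and highest adjusted p of the 19. Npy, neuropeptide Y, of partly the same cells, was at 66.3 to 106 CPM (median 80.4) against 136 to 215 CPM (median 159), a difference of −0.99 ± 0.14 (adjusted p = 5.14e-05). Pvalb, parvalbumin, was at 4.35 to 130.0 CPM (median 25.7) against 59.3 to 79.2 CPM (median 68.2), a difference of −1.48 ± 0.47 (adjusted p = 0.0153), with mouse 66 inside and mouse 76 above the cortical range. It was not called without the mouse as a block (−0.95, adjusted p = 0.0959). Higher members were Th, tyrosine hydroxylase (2.40 ± 0.24), Chodl, of long-range nitric oxide synthase cells (2.45 ± 0.27), Pthlh (1.55 ± 0.12) and Nkx2-1, a medial ganglionic eminence factor with 663 counts against 1.

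Receptor and channel families had members on both sides, as all genes tested did (33.0% higher and 33.2% lower). More of their members passed 2-fold than the 10.9% of all genes tested. The shares were 72.7% of serotonin and 46.4% of peptide, cannabinoid, adenosine and muscarinic receptor genes. They were 24.0% of glutamate and 28.6% of GABA receptor genes. Among 11 serotonin receptor genes 5 were higher and 6 lower (median −0.79). Htr1d (median 31.4 against 0.419 CPM, 6.13 ± 0.18), Htr1b (3.31 ± 0.10), Htr2c (2.15 ± 0.28) and Htr4 (1.75 ± 0.26) were higher past 2-fold, and Htr1a (−2.77 ± 0.32), Htr3a (−2.44 ± 0.21), Htr7 (−2.21 ± 0.23) and Htr5a (−1.83 ± 0.21) lower. Of 28 peptide, cannabinoid, adenosine and muscarinic receptor genes 10 were higher and 14 lower. Apart from Adora2a and Tacr1, the neurokinin 3 receptor Tacr3 (4.10 ± 0.22) and the somatostatin receptor Sstr5 (4.38 ± 0.49, or 5.43 without mouse 68, 3.51 in AL and 7.65 in PBS mice) were higher, while Sstr3 (−4.12 ± 0.41, or −5.05 without mice 72 and 76), Sstr1 (−3.44 ± 0.20), the cholecystokinin receptor Cckbr (−3.96 ± 0.29) and the muscarinic M3 receptor Chrm3 (−2.64 ± 0.18) were lower. The somatostatin receptors thus lay on both sides. Of 25 glutamate receptor genes 12 were higher and 11 lower (median 0.16), with 2 and 4 past 2-fold. Grm2, a presynaptic metabotropic autoreceptor, was at 0.656 to 2.16 CPM (median 1.38) against 48.4 to 64.0 CPM (median 58.6), a difference of −5.40 ± 0.15. Grm4 (1.88 ± 0.12) and Grm5 (1.26 ± 0.09) were higher past 2-fold, and the NMDA receptor subunit gene Grin2a fell to 85.6 to 180.4 CPM (median 126) from 261 to 352 CPM (median 329.6), a difference of −1.37 ± 0.13. Of 14 GABA receptor genes 5 were higher and 7 lower (median −0.22). The subunit genes Gabra5 (−2.36 ± 0.15) and Gabra3 (−2.06 ± 0.14) were lower and Gabra4 (0.92 ± 0.06) and Gabrd (0.99 ± 0.07), of extrasynaptic receptors, higher.

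Of 32 potassium channel genes 12 were higher and 13 lower (median 0.016), with 8 and 7 past 2-fold. Thus 46.9% of this list passed 2-fold, and 41.9% of the calcium list below, against 10.9% of all genes tested. The inward rectifiers coupled to G proteins were lower, Kcnj6 with a median of 1.14 against 29.3 CPM (−3.96 ± 0.41, or −4.90 without mice 72 and 76), Kcnj3 (−2.73 ± 0.20) and Kcnj9 (−2.26 ± 0.14). The delayed and A-type rectifiers Kcna5 (3.96 ± 0.24) and Kcna4 (2.43 ± 0.11) and the auxiliary subunit Kcnab1 (2.29 ± 0.08) were higher. Among 31 calcium-binding and calcium channel genes 12 were higher and 15 lower (median 0.095), with the ryanodine receptor Ryr3 (3.31 ± 0.14) and the auxiliary subunit Cacng4 (2.99 ± 0.09) on one side and the T-type channel Cacna1g (−3.67 ± 0.19) and the calcium sensors Vsnl1 (−3.47 ± 0.21) and Ncald (−3.03 ± 0.24) on the other. Eph receptors and ephrins (7 higher and 10 lower of 19, median −0.41) and cadherins (5 higher and 9 lower of 17, median −0.31) had members on both sides as well. The ligand gene Efnb3 rose by 2.22 ± 0.09 and the receptor gene Ephb1 by 1.32 ± 0.07, while Ephb3 (−2.5 ± 0.12), Ephb2 (−2.44 ± 0.22) and Efna5 (−2.01 ± 0.07) were lower.

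Activity-related and general neuronal genes were mostly lower in the caudate putamen. Of 21 immediate early genes 13 were lower, 4 past 2-fold, and 2 higher (median −0.56). The other 6, Fosb, Jun, Junb, Egr2, Egr3 and Homer1, were not called. Of this list 19.0% passed 2-fold, against 10.9% of all genes tested, and the 2 genes named next are among its largest differences. Bdnf, the neurotrophin that cortical neurons supply to the striatum, was at 0.559 to 5.94 CPM (median 0.860) against 48.2 to 60.5 CPM (median 56.2), a difference of −5.27 ± 0.33, or −6.12 without mice 72 and 76. Fos, an activity-regulated transcription factor, was at 11.1 to 45.7 CPM (median 26.0) against 65.6 to 118 CPM (median 92.8), a difference of −1.84 ± 0.20. Of 14 pan-neuronal genes 13 were lower, 6 past 2-fold, and none higher (median −1.17). Stx1a, a syntaxin of the vesicle fusion complex, was at 24.9 to 94.3 CPM (median 35.6) against 363 to 457 CPM (median 431), a difference of −3.47 ± 0.21. Syp, synaptophysin, was at 60.9 to 123 CPM (median 95.2) against 169.6 to 709 CPM (median 485), a difference of −2.33 ± 0.25. By contrast Tubb3 (−0.66 ± 0.05), Map2 (−0.44 ± 0.07) and Rbfox3 (−0.24 ± 0.07) were lower by less than 2-fold, and Eno2 was not called (−0.16 ± 0.11). These levels are relative to each library's size after normalisation for composition. The oligodendrocyte messages that rise in the same samples are part of these libraries. How far their rise moved the neuronal genes was not tested.

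Glia differed by type. All 14 oligodendrocyte markers were higher past 2-fold, and their summed level was 10957 to 39268 CPM (median 19422) in the caudate putamen and 3343 to 6150 CPM (median 4238) in the cortex, higher in 8 of 8 mice (exact two-sided sign-flip permutation test over 8 pairs, p = 0.0078, the smallest this design allows, adjusted over 15 library measures p = 0.0146). Mbp, myelin basic protein, was at 5050.3 to 19852 CPM (median 9313) against 1453 to 2833 CPM (median 1927), a difference of 2.25 ± 0.20. All 11 microglial markers were higher, none of them past 2-fold, with sums of 789 to 1156 CPM (median 950.4) against 472 to 565 CPM (median 519.9), again in 8 of 8 mice (same exact test, adjusted p = 0.0146). Of the 12 astrocyte markers 3 were higher, 3 lower and 6 not called, and the sums were higher in 4 of 8 mice (exact test, adjusted p = 0.375). Gfap, the intermediate filament of reactive and white matter astrocytes, was at 100.3 to 1329.8 CPM (median 499.9) against 95.3 to 192 CPM (median 115), a difference of 1.84 ± 0.39 (adjusted p = 0.00148), whereas Gjb6, connexin 30, was lower (−1.20 ± 0.14). Endothelial and mural markers were mostly not called (9 of 12).

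**Figure D4:**
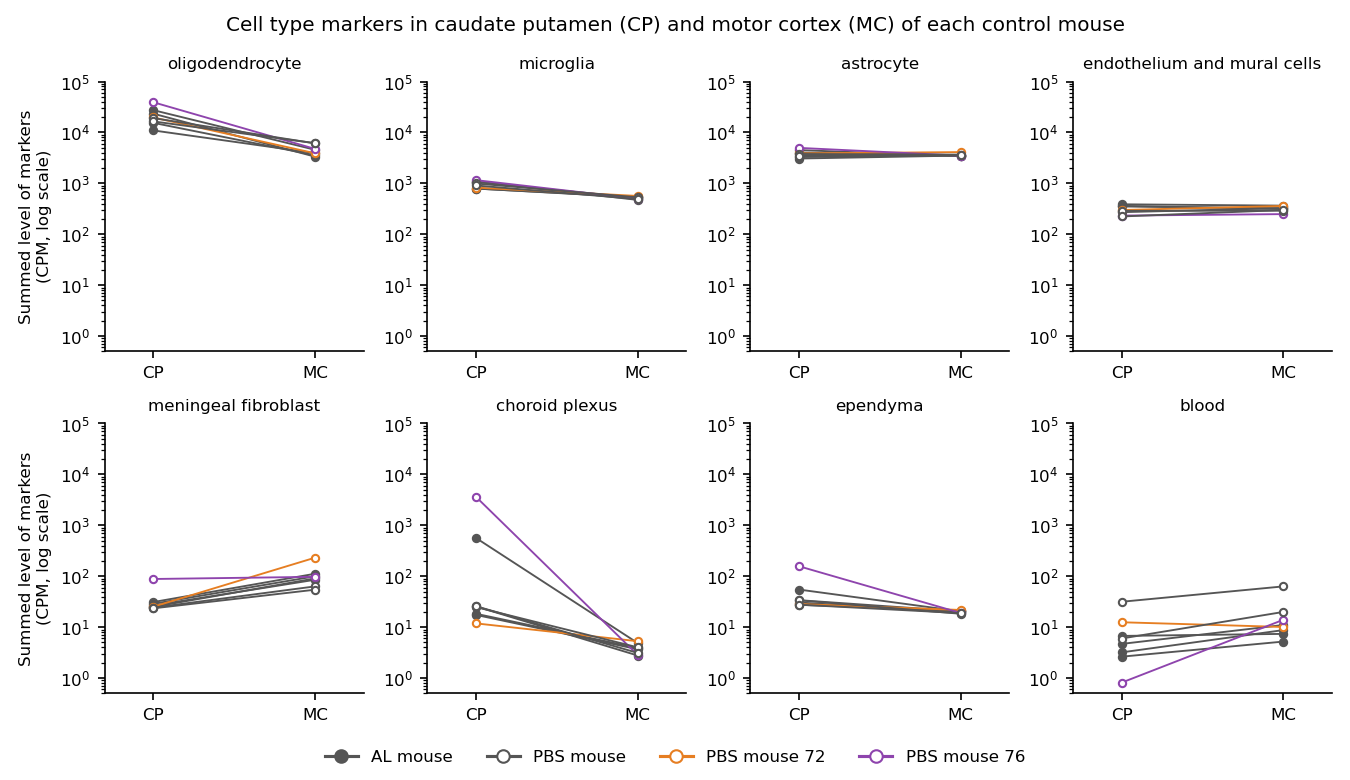
Summed level of the markers of 8 cell types (CPM, log scale) in the caudate putamen (CP) and motor cortex (MC) of each of the 8 control mice, a line per mouse. Filled circles are AL mice and open circles PBS mice, with PBS mouse 72 in orange and PBS mouse 76 in purple. Oligodendrocyte and microglial sums are higher in CP in all 8 mice, meningeal fibroblast sums are higher in MC, and the choroid plexus sum reaches 3642 CPM in the CP library of mouse 76.

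Markers of tissue that borders the brain surface or the ventricles differed too. Of 10 meningeal fibroblast markers 9 were lower and 1 was not called. Their sums were 23.4 to 88.3 CPM (median 25.9) in the caudate putamen and 54.4 to 232 CPM (median 94.0) in the cortex, lower in 8 of 8 mice (exact sign-flip test, adjusted p = 0.0146). Slc47a1, an organic cation extruder of this list, had 861 counts in the cortex and 0 in the caudate putamen, at least 339-fold lower. Choroid plexus markers summed to 11.9 to 3642 CPM (median 25.2) and 2.77 to 5.29 CPM (median 3.79). Only Clic6 of the 3 members tested was called (4.53 ± 0.28), while Kl and Prlr were not, and Ttr was among the members below the count filter. Clic6 was higher in all 8 mice (2.63 to 6.47), and not only in mice 69 and 76. Ependymal sums were 27.5 to 158 CPM (median 32.1) against 18.3 to 21.8 CPM (median 20.1). Smoc2, a matricellular protein (−6.23 ± 0.32), Mylk3, a myosin kinase (−7.66 ± 0.29), Tmem215 (−6.88 ± 0.39) and Ccn3, a relative of connective tissue growth factor (−6.07 ± 0.40), completed the 10 most negative differences together with genes named above. Their counts in the 8 caudate putamen libraries were 22, 5, 16 and 31 in all. Without mice 72 and 76 the differences of Mylk3, Tmem215 and Ccn3 were −8.37, −8.40 and −7.57.

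The difference between the regions was examined in each cohort. In the 4 AL females alone 1558 of 13845 genes (11.3%) were called past 2-fold, and in the 4 PBS males 934 of 13686 (6.82%). Of the genes called in all 8 mice, 1491 were tested in both cohorts and all 1491 had the same sign in both. The median absolute difference was 2.09 in AL and 1.90 in PBS mice, and 1144 (76.7%) lay farther from 0 in AL mice. The PBS count rose to 1503 when mice 72 and 76 were left out, a fit with 2 PBS mice. It was 437 without mouse 80 and 589 without mouse 84, and 1076 without mouse 72. Tested directly, the region difference differed between the cohorts for 0 of 13660 genes (0.0%, edgeR), with 386 at an unadjusted p under 0.05. DESeq2 and limma-voom also called 0, with 169 and 420 at that unadjusted level. The smallest p belonged to Rem2, a GTPase that regulates calcium channels, whose difference was 5.80 in AL and 4.88 in PBS mice, followed by Xist, which the sexes differ in, Rhbdl3, Slc5a7 and Npy, each with an adjusted p of 1. Npy differed by −1.34 in AL and −0.62 in PBS mice. Of the genes named above that were called in all 8 mice, 9 were not called in the PBS mice alone (Pvalb, Chrm4, Itpka, Sp8, Lmo3, Lypd1, Slc6a11, Zic4 and Rbfox3), with the same direction in each.

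**Figure D5:**
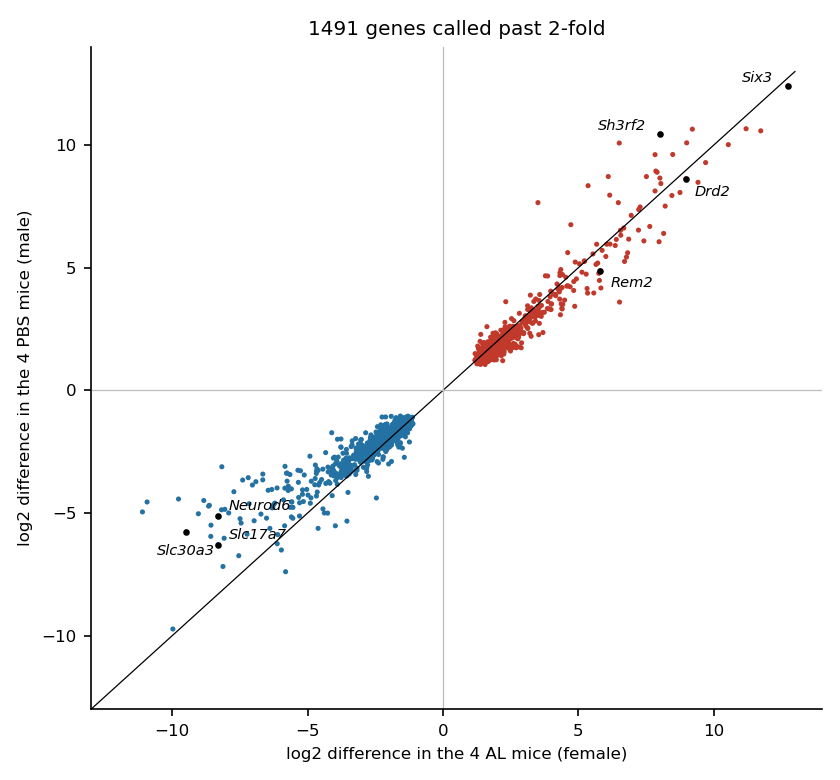
Log2 difference, caudate putamen minus motor cortex, in the 4 AL mice (female) against that in the 4 PBS mice (male) for the 1491 genes called past 2-fold in all 8 mice and tested in both cohorts. The line marks equal values, red and blue mark genes higher and lower in the caudate putamen, all genes have the same sign in both cohorts, and cortical genes such as Slc17a7 and Neurod6 lie nearer 0 in the PBS mice, which include mouse 72.

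The 8 treated mice of the study with both libraries (5 females labelled aDR in the dietary cohort and 3 males labelled YMP in the plasma cohort) are samples that had no part in the fit. There 1362 of 13252 genes (10.3%) were called past 2-fold. Of the 1495 control genes 1408 were tested in the treated mice, all 1408 with the same sign, and 1225 (87.0%) were called past 2-fold again. Drd2 differed by 8.89, Penk by 6.06 and Slc17a7 by −7.09 in the treated mice. Sst, which was not called in the controls, differed by 0.11.

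Across the 15 brain regions of the control mice (112 libraries normalised together), the caudate putamen had the highest mean for 320 of the 665 genes called higher (48.1%), against 10.8% of all genes tested. It was the lowest region for 310 of the 830 genes called lower (37.3%), against 8.20% of all genes tested. The lower genes had their maximum in the motor cortex for 141 (17.0%), in the visual cortex for 130 (15.7%) and in the entorhinal cortex for 105 (12.7%). Over all genes tested these shares were 4.47%, 5.21% and 5.38%. Drd1, Drd2, Adora2a, Penk, Tac1, Ppp1r1b, Pde10a and Rgs9 were each highest in the caudate putamen, followed by the corpus callosum and the subventricular zone. Penk averaged 3193 CPM in the caudate putamen and 1702 CPM in the corpus callosum. Slc17a7 and Tbr1 were highest in the motor cortex, while Neurod6 was highest in the posterior hippocampus, with the motor cortex in rank 3, and Neurod1 in the cerebellum, with the motor cortex in rank 6. These ranks share the caudate putamen and motor cortex libraries with the contrast and describe it further, with no test.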

How the data were processed

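RNA was isolated from homogenized tissue with an RNeasy kit, copied by Smart-Seq2 and made into Nextera XT libraries, per the labels' protocols. The submitters' processing notes name Trim Galore 0.3.7, STAR 2.5.3a, DESeq2 and the build GRCm38. The counting program and annotation are not given in the sources used here. The deposited file holds whole-number counts per gene, unnormalised, as the authors counted them. The comparison was fitted with edgeR 4.0.16 in R 4.3.3: TMM normalisation, a filter on low counts (minimum count 10, minimum total 15), a quasi-likelihood test with the mouse as a block, glmTreat against 2-fold, and Benjamini-Hochberg adjustment over all genes tested. CPM use the TMM library sizes, and differences per mouse a prior count of 2. Fits were tested on simulated data.

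The labels give the same mouse number to both regions of an animal. Deviations from the mean of each region within a cohort correlated by 0.065 on average within a mouse (range −0.083 to 0.43). Between mice of the same cohort they correlated by −0.019. Of the 8 caudate putamen libraries, 3 correlated best with the cortex of their own mouse among those of the cohort. No replicate pair agreed within sampling noise (24 pairs, lowest chi-square per degree of freedom 2.11).

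The members and gene lists were chosen with earlier results of these data known. Named genes are the 10 highest and 10 lowest differences among genes past 2-fold with a mean of at least 5 CPM and 1 sign in all pairs, a fixed set of region markers, up to 4 members at each end of each list with uncalled members of small lists, and the 5 smallest p of the region by cohort term. Some genes that this rule names are not reported here. Floors take 3 counts, and 95% intervals of count ratios are exact and cover counting error only. Alternatives were other normalisations, DESeq2 1.42.0, limma-voom 3.58.1, other filters, no block and leaving out mice. Leaving out mice 72 and 76, or 69, 72 and 76, was chosen after seeing the data.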

Additional observations from a re-analysis of the deposited data

Results flagged for a closer look

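Dixon's test at the 95% level was applied to 72 sets of 8 values (genes with over 3 counts in each region, marker sums and library measures), and 16 sets held a sample far from the others, where chance gives about 3.6. Of the 16 flagged values, 8 were of PBS mouse 72, 5 of PBS mouse 76 and 3 of other mice. The sets draw on the same libraries, so the flagged values are not independent of each other.

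In mouse 72 the log2 difference between the regions lay nearer 0 than in the other 7 mice for 6 cortical genes. It was −4.25 for Tmem215 (others −6.78 to −5.83), −3.19 for Slc30a3 (others −10.01 to −7.15) and −2.26 for Neurod6 (others −9.13 to −7.26). It was −1.74 for Neurod2 (others −8.39 to −6.63), −1.27 for Tbr1 (others −9.35 to −6.65) and −3.92 for Vip (others −6.80 to −5.88). The cortex of this mouse had the highest astrocyte marker sum, 4107.7 CPM (others 3409 to 3663), and the highest meningeal sum, 232 CPM (others 54.4 to 112).

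The caudate putamen of mouse 76 had the highest sums of ependymal markers, 158 CPM (others 27.5 to 54.9), neurogenic zone markers, 106 CPM (others 61.1 to 81.2), choroid plexus markers, 3642 CPM (others 11.9 to 566), and meningeal markers, 88.3 CPM (others 23.4 to 31.1). The 10 most abundant genes took 7.28% of its counts (others 4.80% to 5.95%).

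Adora2a differed by 8.49 in AL mouse 66 (others 6.90 to 7.54), whose cortical library held 6 counts of it. Blood marker sums were highest in PBS mouse 84, at 31.5 CPM in the caudate putamen (others 0.813 to 12.5) and 63.2 CPM in the cortex (others 5.21 to 19.9).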

How the results depend on the processing

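Under other normalisations, tests and filters the count of genes that differed stayed between 7988 (minimum count of 50) and 9513 (no filter), and the count past 2-fold between 1159 and 1789 for the same filters, with 1288 by DESeq2 and 1324 by limma-voom. Leaving out each mouse in turn gave 8396 to 9041 and 1406 to 1582. The count in PBS mice alone moved most: 437 to 1076 with each mouse left out in turn, and 1503 without mice 72 and 76, where 2 pairs remain. The cause was not tested. Counts in AL mice ranged from 1395 to 1571 with each mouse left out, and in treated mice from 1284 to 1378. The cohort difference remained 0 genes in each alternative. With no replicate block (cohort in place of mouse) 8900 genes differed, 1485 past 2-fold, 1546 in AL, 991 in PBS and 1347 in treated mice. Single genes were compared between settings for 156 of the 306 genes kept under the naming rule. Without the block only the calls of Pvalb, Slc6a11 (−0.38, adjusted p = 0.0714) and Sst (−0.23, adjusted p = 0.0494) changed among these 156. Over these 156 genes and 19 alternatives, 2921 of 2949 values kept direction and call, 11 lost and 13 gained the call, and 4 near 0 changed sign: Sst in PBS mice (0.0078), Ptprm in AL mice (0.023) and without mouse 66 (0.0048, lowest −0.076 with each mouse left out), and Cux1 in AL mice (−0.036). The fitted sizes were less stable than direction and call. With all 8 mice DESeq2 gave −9.53 for Neurod2 (−5.68 by edgeR) and −9.10 for Neurod6 (−6.09). It gave −9.49 for Slc30a3 (−6.87) and −8.29 for Tbr1 (−5.94). Limma-voom put Slc17a7 (−5.64, from −7.23) and Tbr1 (−5.29) nearer 0. Without mice 72 and 76, 88 of 1494 genes past 2-fold lay over 1.5 times farther from 0 in fold, 85 of them lower in the caudate putamen. The number of mice and, for genes with few counts, the depth limit the precision.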

Other observations

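The caudate putamen libraries differed among themselves in several genes. Pvalb was at 4.35, 69.7, 7.76 and 29.7 CPM in AL mice 63, 66, 68 and 69 and at 21.7, 130.0, 31.2 and 9.99 CPM in PBS mice 72, 76, 80 and 84. Gfap was at 100.3, 1045, 207 and 785 CPM in the same AL mice and at 488, 1329.8, 512 and 294 CPM in the PBS mice. Both were highest in mouse 76, second in mouse 66 and lowest in mouse 63. Mbp was highest in mouse 76 (19852 CPM), second in mouse 66 (13268 CPM) and lowest in mouse 63 (5050.3 CPM). Drd1 was lowest in mouse 76 (92.7 CPM) and next in mouse 66 (114 CPM), while mouse 68 had the highest level (315 CPM).

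Of genes chosen after their values were seen, the fast potassium channel gene Kcnc2 and the neurofilament gene Nefh were also highest in mice 76 and 66, at 41.3 and 39.1 CPM for Kcnc2 and at 119 and 96.0 CPM for Nefh. In mouse 63 they were at 5.95 and 29.3 CPM, and Nefh was lowest in mouse 68 (27.7 CPM). The cannabinoid receptor gene Cnr1 ranged from 148 CPM in mouse 76 to 555 CPM in mouse 84. These are values of single libraries, and what sets them was not tested.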
